A study of Mus musculus with 2 samples.

Results

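Guanylate-binding proteins (Gbp) and immunity-related GTPases (Irg) are interferon-induced enzymes of cell-autonomous defence. The genes Gbp2, Gbp3, Gbp5, Gbp6, Gbp7, Gbp9, Irgm1, Irgm2, Igtp and Iigp1 were taken by symbol from the table of gene expression, where they are 10 of 20002 genes. The study measured RNA of mouse kidney after AAV9 delivery of shRNA against Regnase-2 (gene Zc3h12b), a group named CKO, beside a Control group given control AAV9. Both groups were C57BL/6J mice on standard chow with no other treatment, injected at 11 weeks of age by the tail vein. AAV9 is said to enter proximal tubule cells preferentially, and the control vector is described as empty in one passage of the methods and as carrying control shRNA in another. The age at tissue collection is given as 14 weeks in one place and 16 weeks in another, and how many mice gave RNA to each library is not given in the sources used here. Each group had 1 library of whole kidney RNA, so no difference has a replicate check and no p-value was computed.

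Interferon-gamma binds a receptor of Ifngr1 and Ifngr2 chains, which signals through the kinases Jak1 and Jak2. Induced genes, which include the Gbp and Irg families, carry gamma-activated sites and interferon-stimulated response elements in their promoters, and factors such as Irf1 bind the latter. The encoded GTPases gather on the membranes of vacuoles that hold microbes, and macrophages and kidney epithelial cells are among the cells that respond to interferon-gamma.

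The deposited values, which carry no standard unit, were turned into reads by subtracting the floor of each library (34 for Control and 50 for CKO), which left totals of 38851231 for Control and 43588721 for CKO. Before ratios were taken, the reads of the CKO library were scaled by a factor of 0.667, the median gene ratio of Control to CKO, and log2 ratios carry a pseudocount of 1. Intervals are 95% limits, Poisson for reads and Clopper-Pearson for ratios and shares, and cover counting error only. The target gene Zc3h12b had 47 Control and 59 CKO reads. Its log2 ratio was -0.25 (-0.83 to 0.33), and it was 0.16 when totals were made equal and 0.42 as deposited, which here means with neither the floor subtracted nor the library scaled. A difference in the target mRNA was not detectable at this depth, so it gives no check of the labels, and CKO below is the name on the label. The kidney source of both libraries shows in the proximal tubule markers, led by Slc27a2 and Slc34a1, with 17639 and 12460.2 RPM in sum (reads of a gene per 1000000 reads of the library).

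Promoter sequences of 7 of the 10 genes were taken from RefSeq on GRCm38.p6, each from 250 bases before the annotated start to 50 after it. Gbp6 and Gbp9 had no entry, and Iigp1 was left out of the search by choice, with the other family genes of its chromosome. These genes are described by their reads. The Gbp genes of chromosome 3 lie side by side within chr3:142493978-142638008, in the order Gbp5, Gbp7, Gbp3, Gbp2b and Gbp2. Stretches of their promoters, all on the plus strand and read 5′ to 3′, are shown because these genes were higher together: chr3:142620579-142620638 for Gbp2, chr3:142559974-142560039 for Gbp3, chr3:142496744-142496803 for Gbp5 and chr3:142530258-142530317 for Gbp7. Capitals mark matches to the core of the interferon-stimulated response element, searched as GAAANNGAAA on both strands, which here read on the reverse strand.
Gbp2: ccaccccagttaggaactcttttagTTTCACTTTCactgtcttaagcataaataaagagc
Gbp3: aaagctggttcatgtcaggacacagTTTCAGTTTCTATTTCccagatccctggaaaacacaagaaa
Gbp5: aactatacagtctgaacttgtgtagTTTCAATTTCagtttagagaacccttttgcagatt
Gbp7: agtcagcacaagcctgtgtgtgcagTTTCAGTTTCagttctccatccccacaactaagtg

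Irgm1 lies at the end of a cluster of 8 family genes, chr11:48861968-49096974, and Igtp and Irgm2 lie in chr11:58187739-58222782. Their promoter stretches, and that of the effector gene Tgtp1 for comparison, are chr11:48871410-48871475 (minus strand) for Irgm1, chr11:58214888-58214947 (plus strand) for Irgm2, chr11:58199497-58199556 (plus strand) for Igtp and chr11:48992289-48992348 (minus strand) for Tgtp1. Capitals again mark GAAANNGAAA, here on the strand of the gene.
Irgm1: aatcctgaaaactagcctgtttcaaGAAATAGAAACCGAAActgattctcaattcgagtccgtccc
Irgm2: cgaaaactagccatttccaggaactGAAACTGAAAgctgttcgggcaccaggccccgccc
Igtp: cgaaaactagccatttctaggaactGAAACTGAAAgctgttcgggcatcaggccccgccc
Tgtp1: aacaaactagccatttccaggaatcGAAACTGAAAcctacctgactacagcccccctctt

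The response element core was found in 7 of 7 members searched (for Gbp3, in the first of 2 entries). Of 27025 mouse genes with promoters of the same length, 3.99% hold it, and from these no chromosome was left out. The core of the gamma-activated site, searched as TTCNNNGAA, which reads alike on both strands, was found in 4 of 7, Gbp5, Gbp7, Irgm2 and Igtp, and in 9.55% of all genes. Of the 10 other family genes searched, 6 held the first core and 4 the second. In Irgm2, Igtp, Tgtp1, Tgtp2 and Gm12185 a gamma-activated core began 11 bases before the response element core, so the pair recurs in 5 genes of the Irg family at the same spacing without overlap. The Igtp and Irgm2 stretches are identical at 58 of 60 bases, and those of Igtp and Tgtp1 at 38 of 60. In Gbp3, matches at -45 and -39 from the start overlap, as do those at -30 and -24 in Irgm1. A match describes the letters of a promoter and is not evidence of binding.

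**Figure D1:**
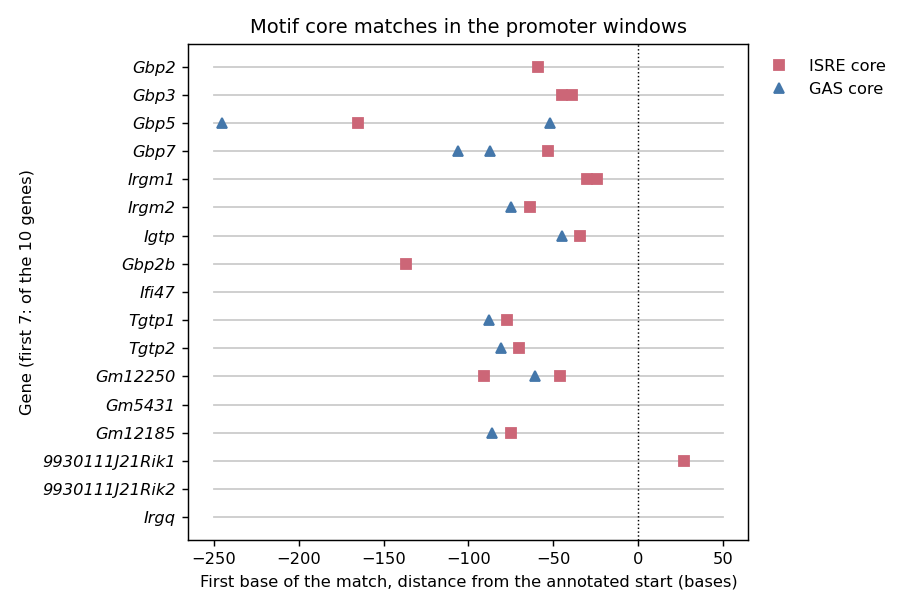
Position of each core match in the promoters of 7 of the 10 genes and of 10 other family genes, in bases from the annotated start (dotted line), with grey lines for the searched stretch. Squares are matches to GAAANNGAAA and triangles matches to TTCNNNGAA. Each of the upper 7 genes has at least 1 square, from -165 in Gbp5 to -24 in Irgm1.

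Each of the 10 GTPase genes was higher in the CKO library, and 10 of 10 were at least 2-fold higher, where the share among all 17469 genes that passed the filter (10 scaled reads in either library) was 13.4%. At least 4-fold higher were 5 of 10, against 4.29% of all genes, a count that became 7 under equal totals, against 6.85% of genes, and 8 as deposited, against 2.74%. At least 2-fold lower were 0 of 10, against 5.35%. The median log2 ratio of the 10 was 2.11, and that of all genes 0.022. Together they held 3490 Control reads and 19118 CKO reads, or 89.8 and 439 RPM, and the sum was 3.65-fold higher after scaling (3.52 to 3.79). The lowest member had 60 reads in the Control library, so each passed the filter in both libraries. In RNA of whole kidney, more cells that express these genes and more of their RNA per cell cannot be told apart.

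Gbp3 (gene ID 55932), a Gbp of the chromosome 3 cluster, had 175 Control reads (150.0 to 203) and 2067 CKO reads (1979 to 2158). It was 7.87-fold higher after scaling (6.75 to 9.24), the largest ratio of the 10, at rank 193 from the top of all genes. In the same cluster, Gbp2 (gene ID 14469), which coats the vacuole of Toxoplasma, had 224 Control reads and 1805 CKO reads and was 5.37-fold higher (4.67 to 6.20). The intervals of Gbp3 and Gbp2 do not overlap, so these genes of 1 cluster differed in ratio beyond counting error.

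Gbp5 (gene ID 229898), linked to activation of the Nlrp3 inflammasome, had the fewest reads, 60 in Control (45.8 to 77.2) and 512 in CKO (469 to 558). Its ratio of 5.69-fold had the widest interval of the 10 genes, 4.35 to 7.56. Gbp7 (gene ID 229900), tied to oxidative and autophagic defence, had 452 Control reads and 1746 CKO reads and was 2.58-fold higher (2.32 to 2.86). Gbp7 lies between Gbp5 and Gbp3, and its interval lies below both of theirs, so position within the cluster did not order the ratios.

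On chromosome 5, Gbp6 (gene ID 100702) had 136 Control reads and 1062 CKO reads, 5.21-fold higher (4.35 to 6.27). Of the 100-base words of its transcripts, 32.4% also occur in other genes of the table, chiefly Gbp10, so the split of reads between these paralogs is uncertain. Gbp6 and Gbp10 summed had 301 and 1832 reads and were 4.06-fold higher (3.59 to 4.60), which does not depend on the split between them. Gbp9 (gene ID 236573) shares 1.74% of its words, had 361 and 1374 reads, and with 2.54-fold (2.26 to 2.86) was the lowest of the 10, at rank 1593.

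Irgm1 (gene ID 15944), a regulatory Irg protein that holds effector Irg proteins inactive on the cell's own membranes and acts in autophagy, had the most reads, 1236 in Control (1168 to 1307) and 5458 in CKO (5314 to 5605). It was 2.94-fold higher (2.77 to 3.13). Irgm2 (gene ID 54396), a regulatory protein of the Golgi, had 303 and 1448 reads and was 3.19-fold higher (2.81 to 3.62). Igtp (gene ID 16145), also called Irgm3 and found on the endoplasmic reticulum and lipid droplets, had 280 and 1525 reads and was 3.63-fold higher (3.19 to 4.14). Igtp shares 5.67% of its words with Irgm2, and both summed were 3.40-fold higher (3.11 to 3.72). The interval of Irgm2 overlaps those of both other regulatory genes, while the intervals of Irgm1 and Igtp do not overlap.

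Iigp1 (gene ID 60440), also called Irga6, is the effector among the 4 Irg genes and is loaded onto vacuoles, where it helps to break the membrane. It had 263 Control reads (232 to 297) and 2121 CKO reads (2032 to 2213) and was 5.38-fold higher (4.73 to 6.13). That interval lies above those of Irgm1, Irgm2 and Igtp, which summed to 1819 and 8431 reads and were 3.09-fold higher (2.94 to 3.25). The effector gene had a larger ratio than its regulators in these libraries, taken singly or summed. Over all 10 genes, the intervals did not overlap in 31 of 45 pairs. The same share over pairs of all genes was not run, and these intervals narrow with more reads. The count is therefore a description only.

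**Figure D2:**
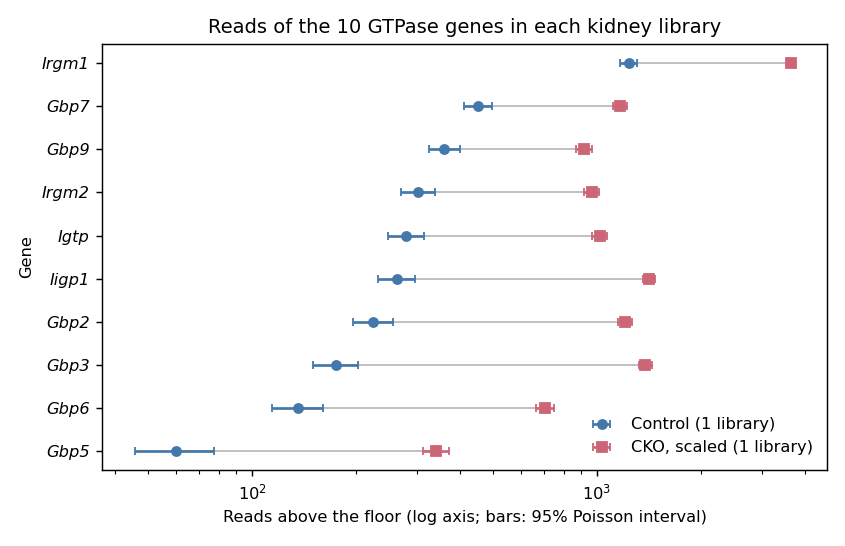
Reads above the floor (log axis) of the 10 GTPase genes in the Control library (circles) and the CKO library after scaling (squares), with 95% Poisson intervals for 1 library each. The CKO value is to the right of the Control value for each gene, and the distance is largest for Gbp3 (7.87-fold) and smallest for Gbp9 (2.54-fold).

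The 6 Gbp genes had a median log2 ratio of 2.40 and were 4.06-fold higher in sum (3.83 to 4.29). The 4 Irg genes had a median of 1.76 and were 3.38-fold higher in sum (3.22 to 3.54). Both sets spread widely, from 1.34 to 2.97 for Gbp and from 1.56 to 2.42 for Irg, so their ranges overlap. The genes with more Control reads tended to have lower ratios: the 3 with the most, Irgm1, Gbp7 and Gbp9, had the 3 lowest log2 ratios, 1.56, 1.36 and 1.34. Each ratio contains the Control reads, so this order is a description only.

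The share of each gene among the reads of the 10 does not depend on the scaling between libraries. Irgm1 had 35.4% of them in Control (33.8 to 37.0) and 28.5% in CKO (27.9 to 29.2). Gbp3 had 5.01% (4.31 to 5.79) and 10.8% (10.4 to 11.3). Iigp1 had 7.54% (6.68 to 8.46) and 11.1% (10.7 to 11.5). Irgm1 led in both libraries, but with a smaller share in the CKO library, where Gbp3, Iigp1 and Gbp2 had larger ones. The shares of Gbp7 and Gbp9 were smaller, 13.0% against 9.13% and 10.3% against 7.19%, while that of Igtp was 8.02% and 7.98%, with overlapping intervals.

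**Figure D3:**
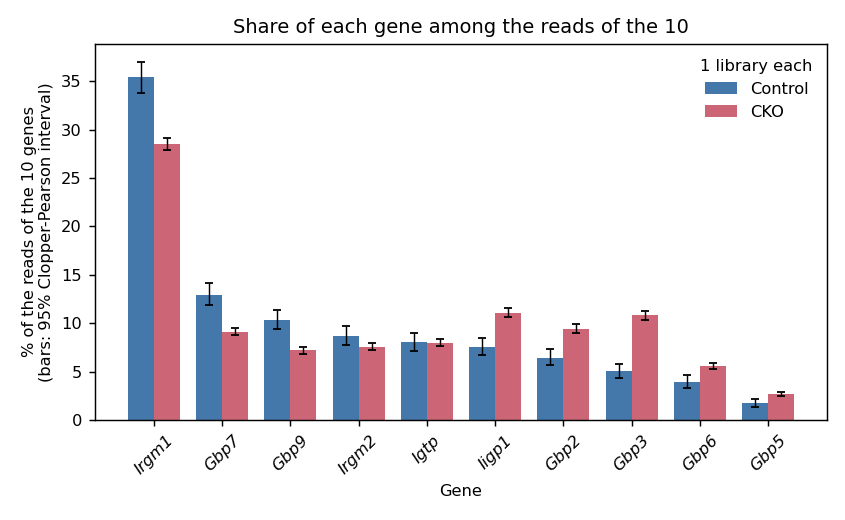
Percent of the reads of the 10 GTPase genes that each gene held in the Control and CKO libraries, with 95% Clopper-Pearson intervals (1 library each). Irgm1 held 35.4% and 28.5%, and Gbp3 5.01% and 10.8%.

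Levels of different genes were compared per kilobase of the longest annotated transcript. In the Control library Irgm1 was highest at 323 reads per kilobase, followed by Igtp at 138, and Gbp5 was lowest at 16.0. The 6 genes from Gbp2, at 89.0, down to Gbp3, at 65.2, had intervals that overlap from neighbour to neighbour. In the CKO library, on the scaled reads, Irgm1 was at 949.5 reads per kilobase, Gbp3 at 514, Igtp at 503, Gbp2 at 478, Iigp1 at 453 and Gbp5 at 90.9. By level, Gbp3 ranked 8 of the 10 in Control and 2 in CKO, although its interval in CKO overlaps those of Igtp and Gbp2. With the longest transcript that has a RefSeq match, Irgm1 was at 547 and 1611 reads per kilobase and the ranks of Gbp3 were again 8 and 2.

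The wider Gbp and Irg family comprised 17 more genes with values, and 14 of the 17 were at least 2-fold higher, against 13.4% of all genes, with a median log2 ratio of 2.08. Of the 14, Gm5431 and Gm12185 had fewer than 10 Control reads, passed the filter only through CKO and so could only be higher. Near copies among the 14, such as Tgtp1 and Tgtp2, are not independent counts. Gbp2b, in the chromosome 3 cluster, had 160 Control and 1720 CKO reads and was 7.17-fold higher (6.09 to 8.48). Among the other effector Irg genes, Ifi47 had 109 and 703 reads, 4.30-fold higher (3.51 to 5.31), and Tgtp1 and Tgtp2, which share 83.3% and 80.4% of their words and cannot be separated, summed to 567 and 5740 reads, 6.75-fold higher (6.19 to 7.37). Gbp2b and the Tgtp pair were above 9 of the 10 genes, and Ifi47 was near their median. Gm4951 and F830016B08Rik, Irg genes like Iigp1, had log2 ratios of 2.24 (1.79 to 2.78) and 2.52 (1.92 to 3.30).

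Genes with few reads or with near copies are uncertain. Gm5431 had 4 and 121 reads, a log2 ratio of 4.03 (2.94 to 6.23), and Gm12185 had 3 and 32 reads, 2.48 (1.15 to 5.18), which as deposited were 2.14 and 1.13. Gbp10 had 165 and 770 reads (log2 ratio 1.63), Gbp11 14 and 67 (1.61), and Gvin1, whose words are shared to 97.8%, 250 and 1595 (2.08). The log2 ratios of 9930111J21Rik1, 9930111J21Rik2 and Gm12250 were 1.55, 1.47 and 1.11. All of these were at least 2-fold higher.

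The 3 family genes below 2-fold were Gbp4, Gbp8 and Irgq. Gbp4, beside Gbp9 on chromosome 5, had 493 Control and 1373 CKO reads, for a log2 ratio of 0.89 (0.74 to 1.04), which was 1.31 with equal totals. Gbp8 had 210 Control and 339 CKO reads, for a log2 ratio of 0.11 (-0.15 to 0.36), so a difference was not detectable at this depth under the main scaling. Irgq, a divergent family gene on chromosome 7, had 1268 and 1785 reads, at -0.09 (-0.20 to 0.013), but at 0.33 when totals were made equal and 0.49 as deposited. The 5 family genes of chromosome 3 were 4.89-fold higher in sum (4.58 to 5.21), the 11 of chromosome 11 were 3.92-fold higher (3.76 to 4.09), and the 6 of chromosome 5 were 2.41-fold higher (2.27 to 2.56). The chromosome 5 genes ranged from Gbp8 at 0.11 to Gbp6 at 2.37.

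Genes outside the family beside these clusters gave a comparison by position. Of the 16 nearest with values, 2 on each side of 4 clusters, 1 was at least 2-fold higher and 1 was lower by that much (13.4% and 5.35% of all genes were), and the median log2 ratio was -0.13. With equal totals 2 were at least 2-fold higher and 0 lower, against 21.9% and 2.47% of all genes, with a median of 0.29. As deposited the counts were also 2 and 0, against 17.9% and 0.655% of all genes. Pdlim5 and Kyat3, which flank the chromosome 3 cluster, were at 0.37 (0.30 to 0.45) and -0.54 (-0.63 to -0.46), the latter at 0.052 with the values as deposited. Trim7, which flanks Irgm1, had 6066 and 5591 reads and was at -0.70 (-0.76 to -0.65). Mrpl22, before the cluster of Igtp and Irgm2, was at -0.39, but at 0.027 with equal totals. The gene past 2-fold on the higher side was Abcg3, beside Gbp8, with 13 Control and 58 CKO reads (interval of the log2 ratio 0.69 to 2.56), and on the lower side Btnl9, beyond Ifi47, at -1.17 (-1.46 to -0.90). Psme2b, a proteasome activator gene inside the Irgm1 cluster, overlaps the family gene 9930111J21Rik1. It had 14 and 58 reads and was at 1.40 (0.61 to 2.42).

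**Figure D4:**
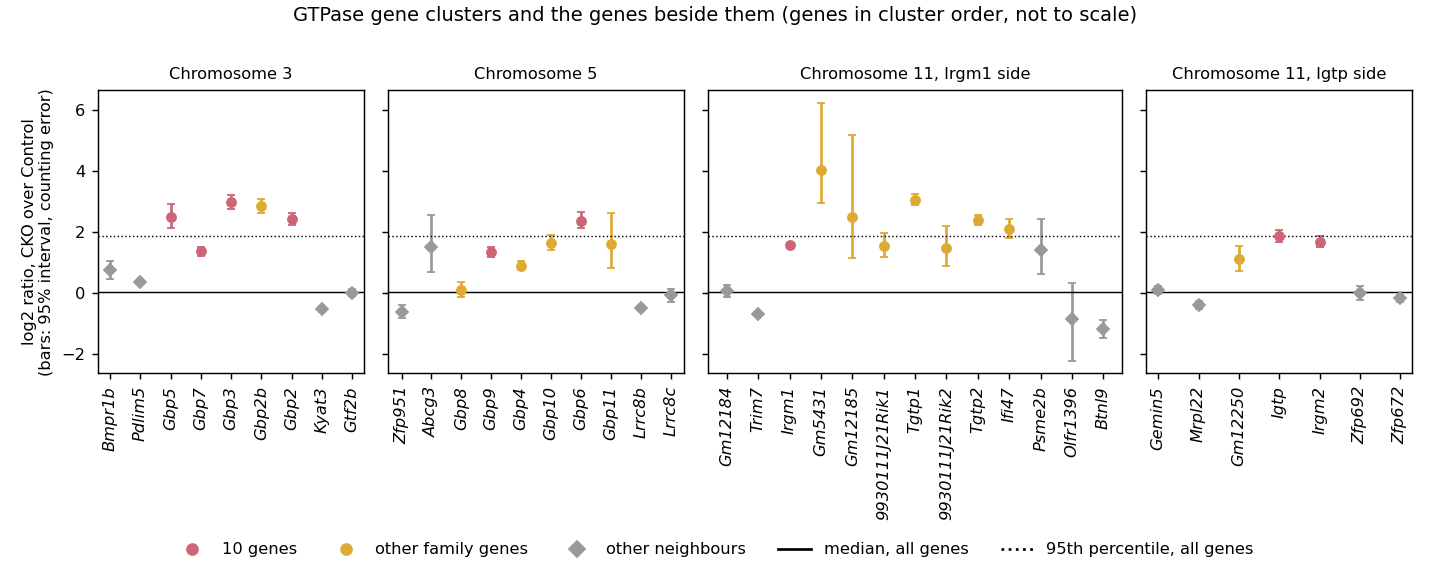
log2 ratio of CKO over Control, with 95% intervals for counting error, for 9 of the 10 genes (red), other family genes (yellow) and the nearest other genes (grey diamonds) in 4 clusters, in chromosomal order and not to scale. Lines mark the median (0.022) and the 95th percentile (1.87) of 17469 genes. Family genes lie above most grey neighbours, and the lowest of them is Gbp8 at 0.11. Several grey values below 0 lie above 0 under other scalings, as Mrpl22 does at 0.027 with equal totals.

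The genes of the pathway upstream of the GTPases were read in the order of their roles. Ifng, the ligand, was not analysed here. Of the receptor chains, Ifngr1 had 887 and 2809 reads and was 2.11-fold higher (1.96 to 2.28), and Ifngr2 had 890 and 1731 reads and was 1.30-fold higher (1.20 to 1.41). The list of 6 measured inducers of interferon-gamma had 4 genes past the filter, with a median log2 ratio of 0.26. At least 2-fold higher was 1 of the 4, against 13.4% of all genes. This was the interleukin-18 receptor gene Il18r1, with 17 Control and 261 CKO reads and a log2 ratio of 3.28 (2.65 to 4.16). Il15 was the lowest at -0.29, but at 0.13 with equal totals.

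Of 8 signalling kinases and factors, 4 were at least 2-fold higher, against 13.4% of all genes. Their median log2 ratio was 0.92, below the 2.11 of the GTPase genes. Irf1 had 465 Control and 2263 CKO reads, 3.24-fold higher (2.93 to 3.59). Irf8 was at 1.43 on the log2 scale, and Ciita and Nlrc5, the regulators of MHC class II and class I genes, were at 2.38 and 2.16. Irf1 was higher beside the GTPase genes, with a ratio below their median. Jak2 was at 0.40, Irf2 at 0.16 and Batf2 at 0.09 (-0.66 to 0.88). Jak1, the most abundant of the list, had 5692 and 8536 reads, with an interval of the log2 ratio from -0.05 to 0.05, and was at 0.42 with equal totals.

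Among 6 inhibitors of the pathway, 2 were at least 2-fold higher, against 13.4% of all genes, with a median of 0.15. Socs3 had 84 and 1479 reads and was 11.7-fold higher (9.42 to 14.8). Socs1, the feedback inhibitor of the receptor kinases and itself induced by interferon-gamma, had 8 and 37 reads and was 3.08-fold higher, with a wide interval of 1.41 to 7.66. The phosphatase and Pias genes were near 0, from Ptpn11 at -0.08, which was 0.34 with equal totals, to Ptpn2 at 0.16. Only the Socs genes of this list were past 2-fold.

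Other targets of interferon were set beside the GTPase genes. Of 11 other effectors of interferon-gamma, 8 were at least 2-fold higher, against 13.4% of all genes (10 with equal totals or as deposited, against 21.9% and 17.9%), with a median of 1.89. Cybb, a subunit of the phagocyte oxidase, had 154 and 1387 reads at 2.58 on the log2 scale (2.34 to 2.84). Psmb8, an immunoproteasome subunit and the most abundant of the list, was 4.28-fold higher (3.74 to 4.91). Cxcl10, a chemokine for T cells, was the highest at 3.28, and Nos2 was lowest, with 37 Control and 70 CKO reads, at 0.33 (-0.26 to 0.95). Ido1 and Acod1 were not analysed here. The summed ratio of this list, 4.03-fold (3.77 to 4.31), has an interval that overlaps that of the GTPase genes (3.52 to 3.79), though not in each case with 1 gene left out.

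Genes more often tied to type I interferon were read as well. Ifnb1 and Ifna4 were not analysed here. Of 7 receptor genes and factors, 3 were at least 2-fold higher, against 13.4% of all genes, with a median of 0.43. These 3 were Irf7 at 2.94, Irf9 at 1.48 and Stat2 at 1.31, whereas the receptor chains Ifnar1 and Ifnar2 were at 0.32 and 0.43. Irf3 was the lowest at -0.14, and was 0.28 with equal totals. Of 12 antiviral effectors, 11 were at least 2-fold higher, against 13.4% of all genes. Their median was 2.28 and their summed ratio 3.56-fold (3.39 to 3.74). The exception was Rsad2, which had 564 and 844 reads, and the highest was Mx1, with 4 and 120, which was below Oas2 as deposited. Ifit2, the most abundant of them in CKO but not in Control, where Rsad2 was, had 439 and 2123 reads and was 3.22-fold higher (2.91 to 3.58). The interval of the antiviral sum overlaps that of the GTPase sum, but this rests on single genes: without Rsad2 the antiviral sum was 4.61-fold higher (4.35 to 4.88), and without Irgm1 the GTPase sum was 4.04-fold higher (3.86 to 4.23).

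Irgm1 acts with the conjugation machinery of autophagy, which places Gabarap and Map1lc3 proteins on membranes and is needed for Gbp and Irg proteins to reach vacuoles. Of 13 autophagy genes, Ulk1 and Becn1 among them, 0 were past 2-fold in either direction (13.4% of all genes were higher and 5.35% lower). The median log2 ratio was -0.20, which turned to 0.22 with equal totals and to 0.39 as deposited. Gabarapl1, the most abundant, had 23144 and 22839 reads. Map1lc3a was the lowest, at -0.89 and at -0.47 with equal totals, and Becn1 the highest, at 0.00073 and 0.42. The median of all genes was at 0.022, 0.44 and 0.57 under these settings, and the median of the list lay below it in each, by 0.22, 0.22 and 0.17. In a list of 13 genes a count of 0 lies near the shares of all genes given above, so no difference is read from it.

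**Figure D5:**
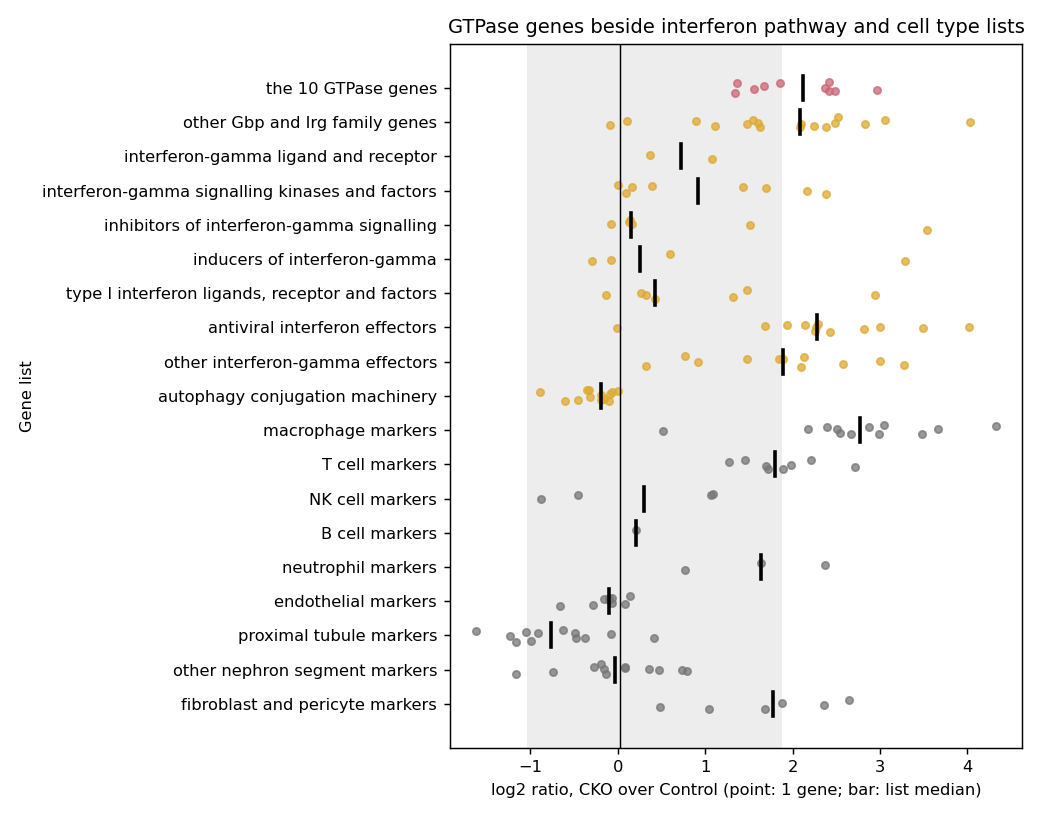
log2 ratio of CKO over Control for the 10 GTPase genes (red), genes of interferon pathways, the wider family and autophagy (yellow) and cell type markers (grey), 1 point a gene, with list medians as bars and the 5th to 95th percentile of 17469 genes (-1.04 to 1.87) shaded. The medians are 2.11 for the GTPase genes, 2.28 for the antiviral effectors and 2.77 for the macrophage markers. The autophagy, endothelial and other nephron medians lie below 0 here but above 0 with equal totals (0.22, 0.32 and 0.39), which places the median of all genes at 0.44.

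Markers of several cell types that respond to or make interferon-gamma were also higher in the CKO library. Of 12 macrophage markers, 11 were at least 2-fold higher, against 13.4% of all genes, with a median log2 ratio of 2.77. They summed to 104 RPM in Control and 637 in CKO, a 4.59-fold higher sum after scaling (4.44 to 4.75), and the most abundant was Csf1r in Control and Lyz2 in CKO. Csf1r, the marker with the lowest ratio, held 2244 of the 4033 Control reads of this sum and 4803 of the 27782 CKO reads. The summed ratio without Csf1r was not run. The complement gene C1qa had 258 and 3088 reads, and Adgre1 had 87 and 770. The highest was Ms4a7, with 6 and 210 reads and a log2 ratio of 4.33 (3.40 to 6.01), and the exception was Csf1r at 0.51, below Cd68 at 2.17. With the values as deposited, Ms4a7 was at 2.67, below Lyz2 at 4.16, and Csf1r was at 1.09. All 12 were then at least 2-fold higher, against 17.9% of all genes. Their part in the result for the GTPase genes was not tested.

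Of 8 measured T cell markers, 8 were at least 2-fold higher, against 13.4% of all genes, with a median of 1.80. Of these, Cd3e, Cd8a, Cd5 and Cd28 had fewer than 10 Control reads, passed the filter only through CKO and so could only be higher. The 8 markers had few reads: 90 in Control and 526 in CKO, or 2.32 and 12.1 RPM, 3.90-fold higher in sum (3.11 to 4.93). They ran from Cd2 at 1.27 to Cd5, which had 3 and 38 reads, at 2.72 (1.42 to 5.42). As deposited, 7 of 8 were at least 2-fold higher, against 17.9% of all genes, with a median of 1.24. Under that setting Cd28 was lowest at 0.84, and Cd5 at 1.23 was below Lck at 1.74. Lck was the most abundant with 28 and 160 reads, and Cd3d and Cd8b1 were not analysed here. Of 5 NK cell markers, which summed to 1.42 and 2.23 RPM, 4 passed the filter, with a median of 0.30. At least 2-fold higher were 2 (0 as deposited), against 13.4% and 17.9% of all genes. Their sum was 1.18-fold higher (0.836 to 1.67), so a difference was not detectable at this depth under the main scaling. Nkg7 was the highest at 1.09, Gzma the lowest at -0.88, which turned to 0.29 as deposited, the most abundant was Gzma in Control and Prf1 in CKO, and Gzmb, Eomes, Klrd1 and Klra8 were not analysed here. The part of T and NK cells in the result was not tested.

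Of 3 neutrophil markers, 2 were at least 2-fold higher (3 with equal totals), against 13.4% and 21.9% of all genes. Their median was 1.64, with sums of 1.08 and 5.96 RPM. Csf3r was the most abundant and the highest, with 22 and 177 reads, S100a8 was the lowest at 0.77, and Ly6g, Cxcr2 and Retnlg were not analysed here. The single B cell marker with values, Cd79b, had 23 and 40 reads, and Ms4a1, Cd79a, Pax5 and Blk were not analysed here. Of 6 fibroblast and pericyte markers, 5 were at least 2-fold higher (6 as deposited), against 13.4% and 17.9% of all genes. Their median was 1.78, with sums of 139.9 and 523 RPM, and the most abundant was Pdgfrb in Control and Col1a2 in CKO. Col1a1 was the highest at 2.65, and Pdgfrb the lowest at 0.48. The part of these cells in the result was not tested either.

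Markers of endothelial cells and of the nephron had lower ratios. Of 9 endothelial markers, 0 were past 2-fold in either direction, with sums of 478 and 584 RPM and Plvap as the most abundant, and the median of -0.10 was 0.32 with equal totals, in each case 0.12 below the median of all genes. They ran from Kdr at -0.67 to Emcn at 0.14. Of 12 proximal tubule markers, the cells the vector is said to reach, 4 were past 2-fold on the lower side and 0 on the higher, from Slc22a6 at -1.62 to Slc5a12 at 0.41. Only Slc22a6 was past 2-fold with equal totals or as deposited. Their median of -0.76 was -0.35 under equal totals and -0.18 as deposited, or 0.79, 0.79 and 0.75 below that of all genes. Of 12 markers of other nephron segments, 1, Pvalb at -1.17, was past 2-fold on the lower side, and Aqp2 was the highest at 0.79. With equal totals Pvalb was at -0.75, and Aqp2 at 1.21 and Scnn1g at 1.15 were at least 2-fold higher, and as deposited 3 were, with 0 lower. Their median of -0.03 was 0.39 with equal totals, in each case 0.05 below that of all genes, with sums of 3998 and 6540 RPM and Umod as the most abundant. The GTPase genes had higher ratios than every marker of these 3 lists, and their source among the cells of the kidney was not tested.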

How the data were processed

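RNA from left kidneys was made into stranded poly(A) libraries, 1 for Control and 1 for CKO, and sequenced as 100-base reads. Per the methods and the submitters' processing notes, the authors checked reads with FastQC, aligned them with STAR 2.7.3a to mm10, counted them with HTSeq, and used DESeq2, edgeR and Cufflinks 2.2.1. As deposited, the values are a score with no standard unit: whole numbers that the authors call normalized counts, with minima of 35 and 51. That they are reads plus a constant is an inference, on which the reads, RPM and counting intervals given here rest. The minimum less 1 was subtracted, which left every gene with at least 1 read and medians of 284 and 513.5 reads, and CKO reads were multiplied by 0.667.

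log2 ratios used a pseudocount of 1, genes needed 10 scaled reads in 1 library, and the thresholds were 2-fold and 4-fold. With 1 library per group there was no test. The members and the gene lists were chosen with earlier results of these data known, and 2 lists were each shortened by 1 gene after values were seen, for a reason other than its value. All members and all measured family genes were named, and of other lists the highest, lowest or most abundant genes and others by their role. Genes given as not analysed here had no value under that symbol among the 20002 genes. C1qa, Adgre1, Cd68, Cybb and the flanking genes named were chosen after their values were seen. Alternatives were pseudocounts of 0.1 and 10, equal totals, equal upper quartiles, a median log2 ratio of 0, the values as deposited, the minimum itself subtracted, no filter or 50 reads, and thresholds of 1.5-fold and 4-fold. Transcript lengths, shared 100-base words and cluster bounds came from GENCODE M21, and promoters from RefSeq GRCm38.p6. The steps were run on simulated Poisson reads with as many genes raised as lowered. That run cannot show whether the floor or the scaling is right for these libraries. Python 3.11.15, numpy 2.4.6, pandas 2.3.3, scipy 1.17.1 and matplotlib 3.10.9 were used.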

Additional observations from a re-analysis of the deposited data

How the results depend on the processing

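No paired analysis was possible because there was only 1 library for Control and 1 for CKO. The median log2 ratio of all genes moved from 0.022 to 0.44 with equal totals and to 0.57 with the values as deposited, which changes both the floor and the scaling, and the median of the 10 GTPase genes from 2.11 to 2.53 and 2.44. All 10 were at least 2-fold higher under each scaling and pseudocount run, while the share of all genes ran from 10.4% with a pseudocount of 10 to 21.9% with equal totals. The number at least 4-fold higher was 5, but 7 with equal totals and 8 as deposited (4.29%, 6.85% and 2.74% of all genes). The count of 5 was planned. Its counts under these 2 alternatives were added after the values were seen, like the list counts under them and the sums with 1 gene left out. The 70 single values of these genes under the alternatives ran from 1.32 to 3.39: 52 stayed within the counting interval, 18 moved and 0 reversed. Relative to the median of all genes, Gbp9 was at 1.28 at the least and Gbp3 at 2.96 at the most.

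Leaving out Gbp6, the member that shares over 10% of its 100-base words, was chosen after seeing the data, as was the RefSeq-matched length. Without Gbp6 the median was 1.86 over 9 genes, since an odd number places the median on Igtp. Genes at least 2-fold higher and lower numbered 2334 and 934 (71.4% higher), 3870 and 437 with equal totals (89.9%), and 3574 and 131 with the values as deposited (96.5%). With at least 50 reads 617 were lower, from fewer genes tested. By construction, the 1.5-fold threshold gave 3801 higher and 2423 lower (61.1%), and the 4-fold threshold 749 and 166 (81.9%). Of 126 other list medians, 24 moved beyond their interval. The cause of these shifts was not tested. Depth limits genes with few reads, such as Socs1, Gm5431, Gm12185, Mx1, Ms4a7, S100a8 and the T, NK and B cell markers. Socs1, Gm5431, Gm12185, Mx1, Ms4a7, S100a8, Nkg7, Cd3e, Cd8a, Cd5 and Cd28 had fewer than 10 Control reads and passed the filter only through CKO.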
